A study of Mus musculus with 12 samples.

Results

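A set of 8 genes whose products act at stalled replication forks and at the branched DNA left behind by recombination were followed in the mouse cerebellum and in medulloblastoma, a tumor of the cerebellum. They were chosen by symbol from the deposited expression table, which lists 24091 genes, and all 8 were found in it. They are the fork remodelers Smarcal1, Zranb3 and Hltf, the junction-cutting genes Mus81, Eme1, Slx4 and Gen1, and Paxip1, which encodes PTIP. In the RefSeq annotation of GRCm38.p6 the genes lie apart from each other, with Smarcal1 at chr1:72536695-72636790, Zranb3 at chr1:127954179-128103053, Hltf at chr3:20057808-20118491, Mus81 at chr19:5482561-5488389, Eme1 at chr11:94644972-94653836, Slx4 at chr16:3979105-4003829, Gen1 at chr12:11238928-11266029 and Paxip1 at chr5:27740080-27791672. Of these, Eme1, Gen1 and Zranb3 rose in tumors over control cerebellum, while Mus81, which encodes the catalytic partner of EME1, had a lower level in every tumor than in every other sample.

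RNA was sequenced from 12 mouse samples in 4 groups of 3. The tumors came from Brca2-mut;Trp53-mut mice GB344, GB359 and GB370, and cerebellum next to the tumor was taken from the same 3 mice. The controls were cerebella of Brca2-mut;Trp53-WT mice GB361, GB508 and GB512 and of Brca2-WT;Trp53-mut mice GB517, GB519 and GB520, both at postnatal day 90 according to the column definitions of the study's supplementary data. The study calls the controls age-matched to the tumors, and the age of each tumor-bearing mouse is not stated in the labels. In this model, hGFAP-Cre removes Brca2 exons 3 and 4 from cells of the central nervous system. Cells outside the lineage in which that promoter is active keep these exons, whereas Trp53 is lost in the whole animal. The study reports that BRCA2 protein is still made after the deletion, as a product shortened at its N terminus that lacks the PALB2-binding domain. Neither control genotype is wild type at both loci, and the tumor and adjacent groups share their animals.

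When a replication fork stalls, SMARCAL1, ZRANB3 and HLTF, which are SNF2-family motor proteins, can reanneal the parental strands and turn the fork back into a 4-armed structure. BRCA2 keeps nucleases from degrading the nascent strands of such forks, and PTIP is known for helping to bring the nuclease MRE11 to forks that lack this protection. Branched intermediates that persist can be cut by MUS81-EME1, which works with the scaffold protein SLX4, or by GEN1, a Holliday junction resolvase.

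Promoter sequence is shown for the 3 genes that rose and for Mus81, which did not, because these are the members on which the comparisons turn. The RefSeq windows (GRCm38.p6) run from 250 bases before to 30 bases after an annotated start site and are written 5′ to 3′ on the strand of the gene, which is the minus strand for all 4. They lie at chr1:128103018-128103297 for Zranb3, chr11:94653714-94653993 for Eme1, chr12:11265778-11266057 for Gen1 and chr19:5488350-5488629 for Mus81. Zranb3 has another annotated start, not printed. Capitals mark matches, on either strand, to the cell cycle homology region (TTTGAA or TTCGAA), the CCAAT box (CCAAT) and an ETS motif (CCGGAAG).
Zranb3: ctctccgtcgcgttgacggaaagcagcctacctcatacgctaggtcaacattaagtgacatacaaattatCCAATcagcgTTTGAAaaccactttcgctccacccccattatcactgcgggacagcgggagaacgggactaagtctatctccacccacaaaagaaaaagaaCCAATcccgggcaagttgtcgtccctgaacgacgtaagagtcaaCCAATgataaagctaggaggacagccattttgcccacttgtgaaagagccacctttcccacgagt
Eme1: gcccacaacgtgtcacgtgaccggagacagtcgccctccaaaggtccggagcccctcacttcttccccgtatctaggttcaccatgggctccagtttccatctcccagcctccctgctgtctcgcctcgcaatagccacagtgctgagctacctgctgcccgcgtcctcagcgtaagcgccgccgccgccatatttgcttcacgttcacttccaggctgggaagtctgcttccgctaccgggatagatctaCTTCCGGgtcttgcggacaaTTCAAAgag
Gen1: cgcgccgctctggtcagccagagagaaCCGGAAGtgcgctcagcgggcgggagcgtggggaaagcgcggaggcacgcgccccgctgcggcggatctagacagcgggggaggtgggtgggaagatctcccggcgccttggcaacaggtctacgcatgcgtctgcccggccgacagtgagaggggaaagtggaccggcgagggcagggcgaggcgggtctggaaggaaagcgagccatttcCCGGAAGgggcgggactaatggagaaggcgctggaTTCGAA
Mus81: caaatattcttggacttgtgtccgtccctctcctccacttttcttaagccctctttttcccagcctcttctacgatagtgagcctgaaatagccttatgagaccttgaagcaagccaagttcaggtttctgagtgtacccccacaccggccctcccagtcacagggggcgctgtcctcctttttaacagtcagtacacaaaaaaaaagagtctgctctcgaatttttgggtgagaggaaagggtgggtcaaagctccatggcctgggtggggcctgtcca

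The 8 genes have 10 annotated windows of this length, since Zranb3 and Hltf have a pair each. A cell cycle homology match was present in 6 of the 10, against 18.4% of all 32851 RefSeq windows. These belong to 3 genes that rose and to 2 that did not. Counted from the start site as 1 with no position 0, it lay at −170 in the Zranb3 window shown and at −169 and −40 in the other, at 22 in Eme1, at 25 in Gen1, at −93 and 24 in Smarcal1 and at −113 in Hltf. CCAAT was found in 5 of the 10 windows, of Zranb3, Smarcal1, Hltf and Slx4, and in 36.1% of all windows. The ETS letters occurred in 3 of the 10, those of Eme1 and Gen1 and the Zranb3 window not shown, and in 8.45% of all windows. None of the 10 held the E2F letters searched (TTTCCCGC, TTTGGCGC, TTTCGCGC or TTTGCCGC), which occur in 2.12% of all windows. The Mus81 and Paxip1 windows held none of the 4 motifs. These are matches of letters only.

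Levels are in TPM, a unit of transcript abundance scaled to transcript length and library total, so levels of different genes can be set side by side. Read counts are not part of this unit, and the sequencing depth of the samples is unknown. Gene-level TPM of Brca2 was 11.2 ± 3.18 (SD, n = 3) in tumors and 3.68 ± 0.409 (SD, n = 6) in controls, and that of Trp53 was 127 ± 3.19 and 41.7 ± 7.68. These values include transcripts without the deleted exons and do not check a genotype. The summed TPM of 20 proliferation genes was 2310 to 2887 in tumors and 167 to 289 in controls, and reached 1046, 808 and 247 in the adjacent cerebella of GB344, GB359 and GB370. Summed markers of 5 genes each also separated tumors from controls. They ranged from 1178 to 1574 against 35.2 to 40.1 TPM for granule progenitors, from 105 to 369.8 against 2366 to 3082 for granule neurons, from 87.9 to 382 against 5596 to 9308 for Purkinje cells and from 74.9 to 277 against 3151 to 4923 for oligodendrocytes. Of the Bergmann glia and astrocyte markers 4 of 5 were called lower in tumors, whereas 1 microglia marker was called higher and 1 each of the endothelium and choroid plexus markers lower. The endothelium list went mostly the other way, with a median log2 fold change of 0.57. At an adjusted p under 0.05 with no fold minimum, 3 of its markers were higher and 1 lower. By that rule 1 microglia marker was higher and 1 lower, and 3 choroid plexus markers were lower. No marker of these lists was at 0 in all samples of a group. In bulk tissue, fewer cells of a type and less RNA per cell cannot be told apart, and the part of these differences in the results on the 8 genes was not tested.

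**Figure D1:**
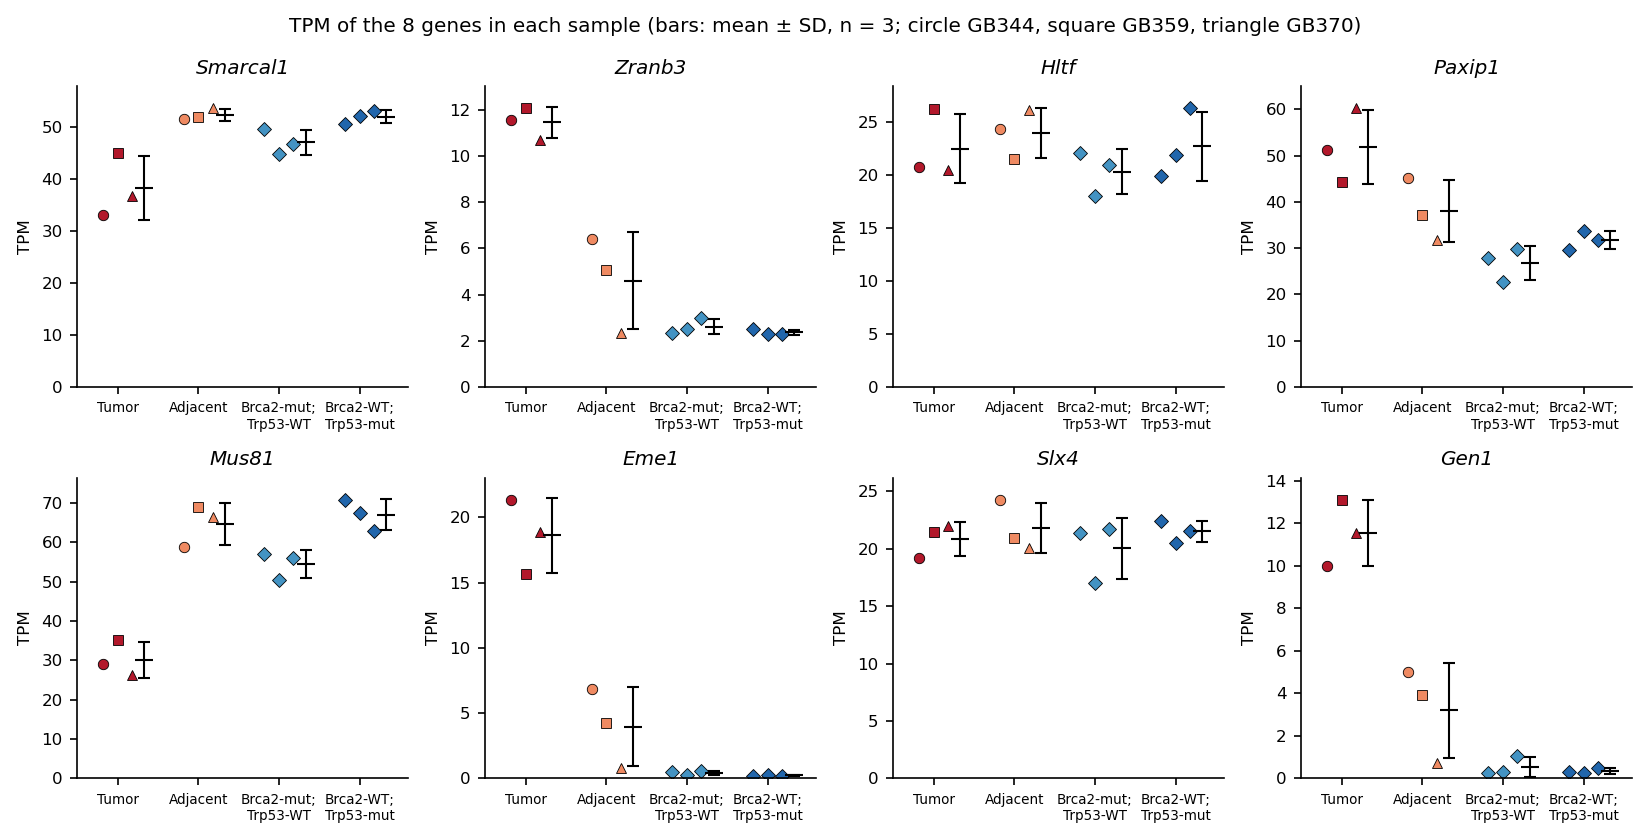
TPM of the 8 genes (1 panel each, vertical axis from 0) in the 12 samples by group; each point is a sample, and bars show mean ± SD (n = 3). Circles, squares and triangles mark mice GB344, GB359 and GB370, and diamonds mark control mice. Eme1, Gen1 and Zranb3 are high in tumors and intermediate in the adjacent cerebella of GB344 and GB359, while Mus81 is lowest in tumors.

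Tumors were first compared with both control genotypes together, the question being which genes differ between tumor and cerebellum without tumor. The test was limma on log2(TPM + 1). A gene was called where its Benjamini-Hochberg adjusted p, over all 16241 tested genes, was under 0.01 and its log2 fold change was 1 or more in either direction. All 8 genes passed the filter on low values, and Eme1 and Gen1 did so through the tumors, apart from 1 control at 1.05 TPM of Gen1. Of the 8, 3 were called higher and 0 lower. Among all tested genes, 14.4% were called higher and 21.5% lower, or 35.9% in either direction, so the share of the 8 genes called in either direction is near the background. At an adjusted p under 0.05 with no fold minimum, 6 of the 8 passed, 4 higher and 2 lower, against 71.3% of all genes (31.8% higher and 39.5% lower). Every tumor lay above every control in 28.3% of tested genes and below every control in 35.7%.

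Among the remodelers, Zranb3 rose. ZRANB3 is a translocase that binds polyubiquitinated PCNA and also has nuclease activity. Its level was 11.6, 12.1 and 10.7 TPM in the tumors of GB344, GB359 and GB370. The 6 controls ranged from 2.27 to 2.97 TPM with a median of 2.42, so the groups did not overlap. The mean in tumors was 4.61 times that in controls, and the log2 fold change was 1.84 (SE 0.11, limma adjusted p = 1.9e-07).

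Smarcal1 encodes an annealing helicase that is brought to forks by RPA. It had the highest level of the 3 remodelers in every sample, with 33.03, 44.9 and 36.6 TPM in tumors and 44.7 to 53.0 TPM in controls (median 50.0). Tumor GB359 lay within the control range and the other 2 tumors below it. The log2 fold change of −0.37 (SE 0.10, limma adjusted p = 0.00777) passed the adjusted p but not the fold minimum. The limma adjusted p was 0.0144 under quantile normalization and 0.0114 without a trend, both above 0.01, and 0.00959 under median-of-ratios scaling. Against Brca2-mut;Trp53-WT controls alone it was 0.0956, and against Brca2-WT;Trp53-mut controls alone 0.0205. Leaving out each sample gave 0.0011 to 0.0306.

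Hltf encodes a translocase that is also a ubiquitin ligase for PCNA. Its level was 20.8, 26.3 and 20.5 TPM in tumors against 18.03 to 26.3 TPM in controls (median 21.4), with full overlap. The log2 fold change of 0.06 had a 95% interval of −0.22 to 0.35 (limma adjusted p = 0.682), which leaves room for changes of that size in either direction.

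Eme1 had the largest fold change of the 8 genes. EME1 is a regulatory subunit with which MUS81 cuts DNA, and EME2 is another. Eme1 was at 21.3, 15.6 and 18.9 TPM in tumors and between 0.180 and 0.548 TPM in the 6 controls (median 0.265). Every tumor was far above every control, and the ratio of the means was 57.6. The added 1 TPM makes the fitted change smaller than this ratio, at a log2 fold change of 3.89 (SE 0.15, 95% interval 3.56 to 4.22, limma adjusted p = 1.76e-08). With 0.1 or 0.01 TPM added instead, the log2 fold change was 5.54 or 5.92, outside that interval. Its size thus depends on the amount added, since every control was below 1 TPM. With 1 TPM added, Eme1 ranked 168 among the 16241 tested genes from the highest fold change.

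Gen1 rose as well. Its level was 9.99, 13.1 and 11.5 TPM in tumors and 0.245 to 1.05 TPM in controls (median 0.302), again without overlap. The ratio of the means was 26.2 and the log2 fold change 3.14 (SE 0.18, limma adjusted p = 1.33e-07), which ranked 320. The size again depends on the amount added, with 4.57 at 0.1 TPM and 4.88 at 0.01 TPM. In the annotation Gen1 overlaps Smc6, and Eme1 overlaps Lrrc59 and Mrpl27. Zranb3 overlaps Gm28800, Gm8283 and Rpl28-ps1, and Smarcal1 overlaps Marchf4. The library kit as named does not mark strand, so reads from the shared bases cannot be assigned to either gene with certainty.

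Mus81 had a different pattern from that of its partner. It was at 29.2, 35.1 and 26.2 TPM in tumors and at 50.5 to 70.8 TPM in controls (median 59.9), so each tumor was below each control. The log2 fold change of −0.99 (SE 0.13, limma adjusted p = 4.48e-05) lay just short of the fold minimum. Smaller pseudocounts and the Brca2-WT;Trp53-mut controls alone put it past that minimum, at −1.01 and −1.14, whereas median-of-ratios scaling gave −0.88.

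Slx4, the scaffold that binds MUS81-EME1 and other nucleases, was at 19.2, 21.4 and 21.97 TPM in tumors and 17.0 to 22.4 TPM in controls. The groups overlapped, and the log2 fold change of 0.01 had a 95% interval of −0.22 to 0.24 (limma adjusted p = 0.947).

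Paxip1 was at 51.1, 44.2 and 60.2 TPM in tumors and 22.6 to 33.6 TPM in controls, without overlap. PTIP is a protein with BRCT repeats that also belongs to the KMT2C and KMT2D histone methyltransferase complexes. The log2 fold change of 0.81 (SE 0.13, limma adjusted p = 0.000311) passed the adjusted p and not the fold minimum.

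**Figure D2:**
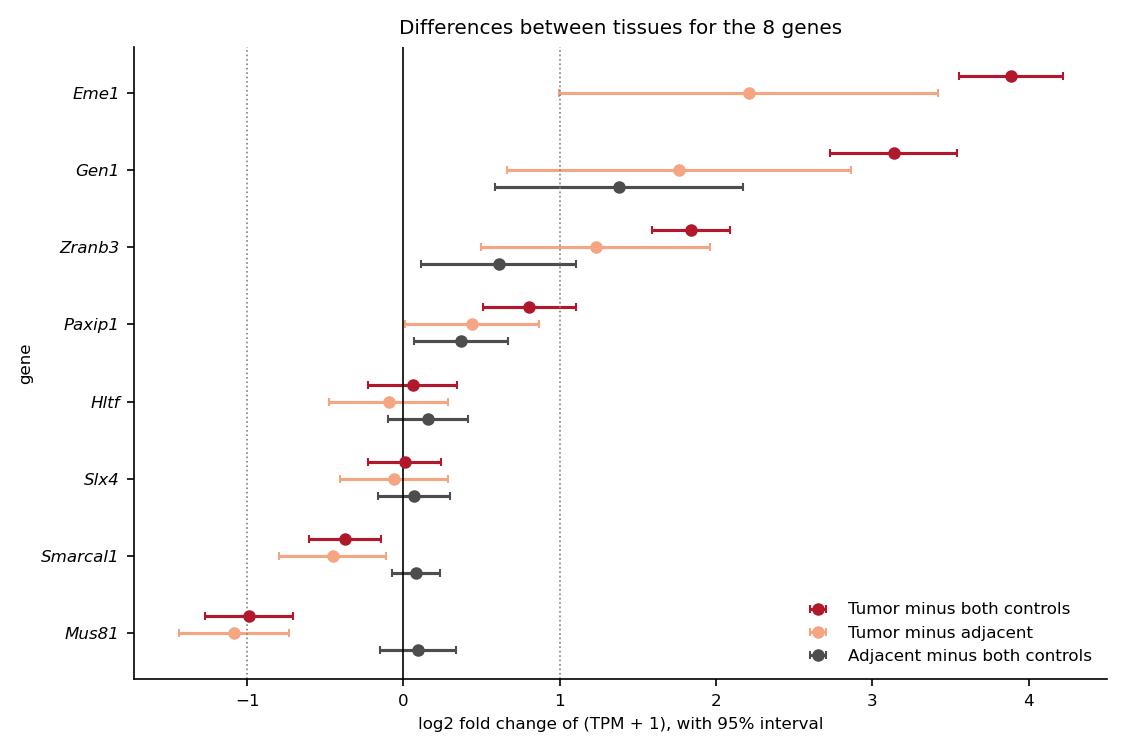
Log2 fold change of (TPM + 1) with its 95% interval (horizontal axis) for each of the 8 genes in 3 comparisons, with dotted lines at the fold minimum of 1 in either direction. Eme1, Gen1 and Zranb3 lie to the right of 1 in tumor against controls with short intervals, and have wide intervals against adjacent cerebellum. Eme1 has no point for adjacent against controls because it did not pass the filter there.

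The sum of Mus81, Eme1, Slx4 and Gen1 in tumors was 81.1 ± 3.59 TPM (SD, n = 3), between the means of the control genotypes. Those were 75.5 ± 6.44 TPM in Brca2-mut;Trp53-WT and 89.1 ± 4.29 TPM in Brca2-WT;Trp53-mut cerebella (SD, n = 3 each), whose ranges did not overlap. In adjacent cerebella the sum was 93.6 ± 5.07 TPM (SD, n = 3), higher than in the tumor in 3 of 3 mice. Mus81 made up 37.0% ± 3.93 (SD, n = 3) of that sum in tumors and 73.7% ± 2.12 (SD, n = 6) in controls. Eme1 TPM was 73.2%, 44.6% and 72.1% of Mus81 TPM in the tumors of GB344, GB359 and GB370, and below 1% of it in each control, with a highest value of 0.979%. Among the remodelers, the summed level in tumors was 72.2 ± 9.68 TPM (SD, n = 3), and that in controls was 73.4 ± 5.48 TPM (SD, n = 6). Zranb3 TPM was 30.4% ± 4.21 (SD, n = 3) of Smarcal1 TPM in tumors and 5.07% ± 0.793 (SD, n = 6) in controls. These ratios describe RNA levels and were not tested.

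**Figure D3:**
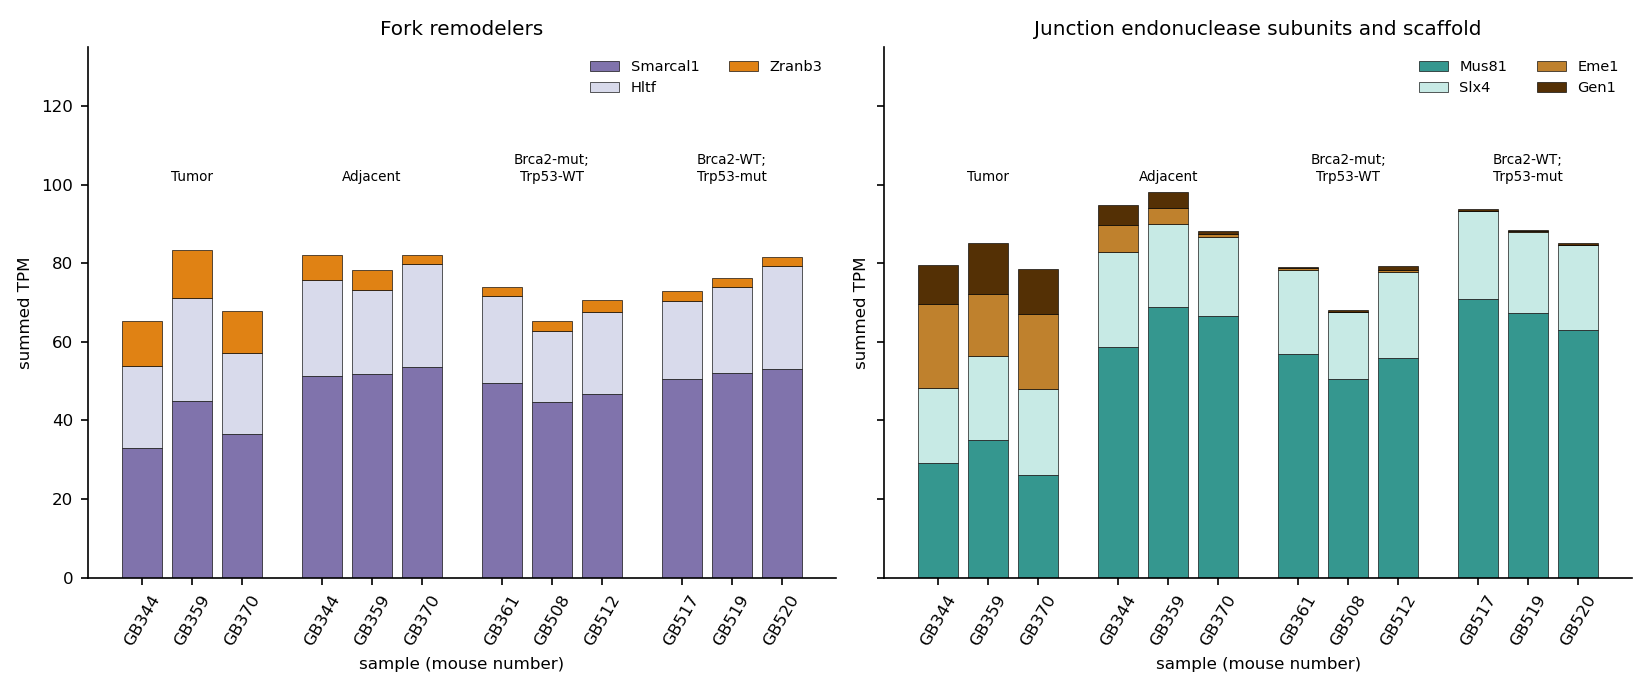
Summed TPM (vertical axis) of the 3 fork remodelers (left) and of the 4 junction genes (right) in each of the 12 samples, stacked by gene. The right-hand bars range from 68.0 to 98.0 TPM, with adjacent cerebella above tumors, and in tumors Eme1 and Gen1 take a large part of the right-hand bars, where Mus81 makes up 37.0% against 73.7% in controls.

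Tumor was next compared with the adjacent cerebellum of the same mice, which share genotype and age. Of the 8 genes, 1 was called, against 22.8% of the 15845 tested genes (4.76% higher and 18% lower). At an adjusted p under 0.05 with no fold minimum 5 of the 8 passed, against 50.4% of all genes. Every tumor lay above every adjacent cerebellum in 23.7% of tested genes and below in 38.9%. That gene was Mus81, which fell from 58.7, 68.9 and 66.5 TPM in the adjacent cerebella of GB344, GB359 and GB370 to 29.2, 35.1 and 26.2 TPM in their tumors. The tumor level was 0.497, 0.509 and 0.394 times the adjacent level, and the log2 fold change was −1.08 (SE 0.15, limma adjusted p = 0.00149). The call was lost under median-of-ratios scaling (−0.88), under quantile normalization (−0.87), without the tumor of GB370 (−0.99) and without the adjacent cerebellum of GB359 (−1.04).

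Eme1, Gen1 and Zranb3 were higher in the tumor than in the adjacent cerebellum in 3 of 3 mice but did not pass the adjusted p. Eme1 had 3.13, 3.67 and 23.1 times as much TPM in the tumor of GB344, GB359 and GB370 as beside it, with a log2 fold change of 2.21 (SE 0.51, limma adjusted p = 0.0115). For Gen1 these ratios were 2.0, 3.36 and 16.5 (log2 fold change 1.76, limma adjusted p = 0.0185), and for Zranb3 1.80, 2.38 and 4.64 (log2 fold change 1.23, limma adjusted p = 0.0156). In all 3 genes the ratio was highest in GB370, whose adjacent cerebellum had the lowest level. Quantile normalization called all 3 higher, and fitting all 4 groups together called 4 genes, these and Mus81.

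Paxip1 was at 45.2, 37.1 and 31.9 TPM in the adjacent cerebella, and its log2 fold change of 0.44 did not pass (SE 0.18, limma adjusted p = 0.0805). Smarcal1 was at 51.4, 51.8 and 53.5 TPM beside the tumors, above every tumor, with a log2 fold change of −0.45 (SE 0.14, limma adjusted p = 0.0355). Hltf and Slx4 overlapped between the groups, with 95% intervals of −0.48 to 0.29 and −0.40 to 0.29.

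The adjacent cerebella differed among themselves. Eme1 was at 6.82 and 4.26 TPM in those of GB344 and GB359 and at 0.818 TPM in that of GB370, and Gen1 was at 4.997, 3.90 and 0.699 TPM. Zranb3 was at 6.42, 5.07 and 2.31 TPM, so that of GB370 lay within the control range and the other 2 above it. On a scale from the control mean (0%) to the tumor of the same mouse (100%), the adjacent cerebellum of GB344 reached 30.9% for Eme1, 47.7% for Gen1 and 43.2% for Zranb3. The median of the 20 proliferation genes was 39.4% there. In GB359 the 3 genes reached 25.7%, 27.3% and 26.9%, beside a median of 24.3% for the proliferation genes. In GB370 they reached 2.67%, 2.32% and −2.08%, beside a median of 1.98%. Granule progenitor markers followed the same order of mice, with medians of 49.9%, 24.6% and 2.69%, and their part in the result was not tested.

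**Figure D4:**
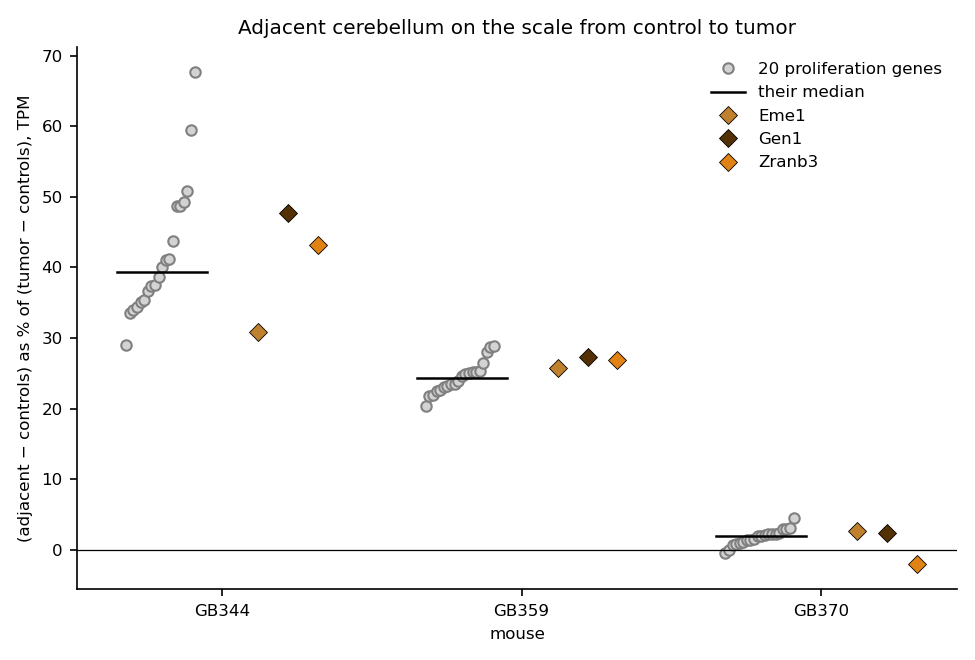
Difference in TPM between adjacent cerebellum and the control mean, as a percent of that between the tumor of the same mouse and the control mean (vertical axis). Mice are GB344, GB359 and GB370. Grey points are the 20 proliferation genes with their median as a line, and diamonds are Eme1, Gen1 and Zranb3, which lie within the range of the grey points in each mouse, apart from Zranb3 in GB370, which lies below it.

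Adjacent cerebellum was compared with both control genotypes, which are the same control samples as in the tumor comparison. None of the 8 genes was called by limma, against 0.236% of the 16091 tested genes. Of the 7 that passed the filter on low values, Gen1 had an adjusted p under 0.05, which 15.7% of all genes had. Its log2 fold change was 1.38 (SE 0.36, limma adjusted p = 0.0322). An unadjusted p under 0.05 was reached by 3 of the 7 tested (Gen1, Zranb3 and Paxip1) and by 34.5% of all genes. Without the adjacent cerebellum of GB370, 1 of the 8 was called, Gen1, at a log2 fold change of 1.94. Zranb3 had a log2 fold change of 0.61 (SE 0.22, limma adjusted p = 0.0839) and Paxip1 one of 0.37 (SE 0.14, limma adjusted p = 0.0869). Eme1 did not pass the filter. All 3 adjacent cerebella lay above all 6 controls in Eme1. Such a separation was seen in 11.7% of the 16091 tested genes, a set that leaves Eme1 out. In the fit without a filter, over 21109 genes, Eme1 had a log2 fold change of 1.68 (SE 0.37, limma adjusted p = 0.0305) and Gen1 one of 1.38 (limma adjusted p = 0.0440), and neither was called. Mus81, Slx4, Hltf and Smarcal1 had log2 fold changes between 0.07 and 0.16, none past the adjusted p.

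The control genotypes, which differ at both loci, were compared with each other. None of the 8 genes was called by limma, against 0.0578% of the 15575 tested genes. An unadjusted p under 0.05 was reached by 1 of the 6 tested, Mus81, and by 20.1% of all genes. Mus81 was at 56.9, 50.5 and 55.9 TPM in Brca2-mut;Trp53-WT cerebella and at 70.8, 67.3 and 63.0 TPM in Brca2-WT;Trp53-mut cerebella. These do not overlap, as was the case for 20.3% of tested genes in this direction, and the log2 fold change of −0.30 (SE 0.08) had a limma adjusted p of 0.112. Smarcal1 also did not overlap, at 49.5, 44.7 and 46.7 TPM against 50.5, 52.0 and 53.0 TPM (log2 fold change −0.14). Eme1 and Gen1 did not pass the filter, with 0.429 ± 0.162 against 0.218 ± 0.0599 TPM and 0.531 ± 0.454 against 0.352 ± 0.126 TPM (SD, n = 3 each), and without a filter neither was called (limma adjusted p = 0.323 and 0.756). Choroid plexus markers summed to 19.2 to 876 TPM in the Brca2-mut;Trp53-WT and 3960 to 5179 TPM in the Brca2-WT;Trp53-mut cerebella. In the same order, Purkinje markers summed to 7710 to 9308 against 5596 to 6114 TPM. Granule neuron markers summed to 2366 to 2728 against 2740 to 3082 TPM, and Bergmann glia and astrocyte markers to 1316 to 1528 against 1251 to 1303 TPM. The sums of the other marker lists overlapped. The part of these markers in the differences of the 8 genes was not tested.

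Other genes of the same processes were counted from lists, in tumor against both controls, where 14.4% of all tested genes were called higher and 21.5% lower. Of 21 fork protection and recombination genes, 13 were called higher and 0 lower, with a median log2 fold change of 1.57 against −0.11 over all tested genes. At an adjusted p under 0.05 with no fold minimum, 16 were higher and 3 lower. Among the genes with large changes were Brca1 (3.78), Clspn (3.78), which encodes the checkpoint mediator claspin, Bard1 (2.59) and Rad54l (2.47). Of 20 junction and fork processing genes, 9 were called higher and 0 lower (median 0.91), or 13 and 4 under the relaxed rule. The largest changes were in Exo1 (3.86), Rbbp8 (2.41), Dna2 (2.28), the helicase gene Blm (1.81) and Fen1 (1.58). The study, which used DESeq2 on counts, lists Blm among helicase genes that did not differ between tumor and normal cerebellum. Here Blm was called higher by limma on TPM (adjusted p = 2.69e-07), and the reason for this disagreement was not tested. Named after their values were seen were Eme2, which encodes the other partner of MUS81, and Slx1b, which encodes the nuclease partner of SLX4. Eme2 had a mean of 13.8 TPM in tumors and 15.5 TPM in controls, with a log2 fold change of −0.16 (limma adjusted p = 0.208). Slx1b had a log2 fold change of −0.39 (limma adjusted p = 0.0291).

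Of 12 relatives of the remodelers in the SNF2 family, 6 were called higher and 0 lower (median 1.10), against 14.4% and 21.5% of all tested genes, or 8 and 1 under the relaxed rule. The largest log2 fold changes were in Hells (3.49), Ercc6l (3.32), Rad54b (2.98), Ttf2 (2.90) and Smarcad1 (2.23). Another list held 11 genes, PTIP partners together with related genes such as Rif1, and had a median of −0.01. Of these, 2 were called higher, Ash2l (1.37) and Wdr5 (1.24), and 1 lower, Pagr1a (−1.89), which encodes a PTIP-associated subunit. That is near the shares over all genes. Dpy30 (0.87) and Rif1 (−0.41) were not called. Under the relaxed rule, which both passed, 4 of the 11 were higher and 2 lower, against 31.8% and 39.5% of all tested genes. All 20 proliferation genes were called higher (median 4.44), with Mki67 (6.06), Aurkb (5.61), Ccna2 (5.51), Cdk1 (5.41) and Rrm2 (5.18) at the top.

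Across the 12 samples, the genes with patterns most like each of the 8 were ranked by Pearson correlation of log2(TPM + 1) over 16498 genes, as a description in which tumors and controls shape most of the correlation. Eme1 was most like Cdk2 (0.997) and Prr11, Gen1 like Racgap1 (0.998) and Espl1, and Zranb3 like Asf1b (0.997) and Traip. Eme1 correlated with Gen1 at 0.987, and Zranb3 with Eme1 at 0.988 and with Gen1 at 0.989. Mus81 was most like Nrbp2 (0.993) and Pagr1a (0.993), and Smarcal1 like Trappc11 (0.988) and Gm38426. Paxip1 was most like Sdccag8 (0.984) and Dhx16. Hltf and Slx4 had lower highest values, with Ogt (0.862) and Mier1 for Hltf and with Ptpn21 (0.856) and Proser1 for Slx4. The samples share groups and mice, so these values carry no test.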

How the data were processed

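Poly(A)-selected libraries were sequenced as 75 bp reads. The study names a pair of sequencing sites without saying which samples went to which, so a batch by site was not tested. Salmon 0.8.1 was run by the authors on the mm10 knownGene transcripts (TxDb 3.4.0), followed by tximport 1.20 and, on counts, DESeq2 1.20. The values the authors deposited are gene-level TPM for each sample, and counts were not used here. Samples were grouped by their labels. For each comparison, genes that reached 1 TPM in 3 or more of its samples entered a limma 3.58.1 fit on log2(TPM + 1) in R 4.3.3 (lmFit, then eBayes with trend), which held the compared groups only. P-values were adjusted by Benjamini-Hochberg across every gene in the fit. Calls used the study's thresholds (adjusted p 0.01, log2 fold change 1). The model was also run on simulated data, where changes were added only to genes of higher mean level. That run does not cover genes as low in controls as Eme1 and Gen1. Gene identifiers matched RefSeq (GRCm38.p6) for 24045 of 24091 genes. Depth is unknown, so precision is the spread between mice. Deviations from group means correlated between tumor and adjacent cerebellum of the same mouse (0.249, 0.176 and 0.152), and the mouse was a block in an alternative fit. Alternatives changed the pseudocount (0.1, 0.01), filter, scaling, variance model, samples in the fit, controls and call rule, and left each sample out. The 8 genes and the lists were chosen with earlier results of these data known. From each list, the 5 genes with the largest absolute change in tumor against controls were named, and for each of the 8 genes the 2 most correlated. Of the genes this rule names, 1 is not reported here. Eme2 and Slx1b were named after their values were seen. Motifs were searched with Python 3.11.15.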

Additional observations from a re-analysis of the deposited data

Results flagged for a closer look

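Among the 6 control cerebella, 3 values of the 8 genes stood apart from the other 5 by Dixon's test of the gap to the nearest sample, which flags about 1 in 20 groups by chance. Gen1 reached 1.05 TPM and Zranb3 2.97 TPM in the Brca2-mut;Trp53-WT cerebellum of GB512, the highest control values of these genes. The proliferation genes also had their highest control sum there, at 289 TPM. Slx4 was lowest in the cerebellum of GB508, of the same genotype, at 17.0 TPM. Smarcal1, Hltf, Mus81 and Paxip1 also had their lowest control values in GB508, though these did not stand apart by Dixon's test. The 8 genes together had their lowest sum there, at 156 TPM. Mir6236 took 11.5% of TPM in GB508, the highest share among the 12 samples, where the lowest was 4.25%. Its part in these low values was not tested. Without GB512 or without GB508, 4 of the 8 genes were called in tumor against controls in place of 3, since Mus81 then passed the fold minimum (−1.01 and −1.04). The same held without the control GB361 (−1.01) and without the tumor of GB359 (−1.10), which did not stand apart.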

How the results depend on the processing

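In tumor against both controls, Eme1, Gen1 and Zranb3 remained called under every alternative tried, with 3 to 4 of the 8 genes called when each sample was left out and 6 at an adjusted p under 0.05 with no fold minimum. The log2 fold changes of Eme1 and Gen1 grew with a smaller pseudocount, to 5.92 and 4.88 at 0.01. In tumor against adjacent cerebellum, where 1 gene was called, median-of-ratios scaling gave 2, quantile normalization 3, all 4 groups in a fit 4 and the relaxed rule 5, and leaving out each sample gave 0 to 3. Leaving out both adjacent cerebella with high proliferation genes, GB344 and GB359, was added after the data were seen, assumes that the lone adjacent sample varies like the tumors, and gave 2, Eme1 (3.42) and Gen1 (2.88). In adjacent against controls the relaxed rule gave 1 and leaving out samples 0 to 1. The paired fit, with the mouse as a replicate block, again called 1 gene, Mus81 (log2 fold change −1.08), and changed no call among the 8; over all genes it called 701 higher and 2841 lower, against 755 and 2852. Quantile normalization moved the median over all tested genes, on the log2 scale, from −0.11 to 0.04 in tumor against controls, with 2785 called higher and 3055 lower in place of 2341 and 3489. Against adjacent cerebellum it moved from −0.14 to 0.12, with 1603 and 2192 in place of 755 and 2852, and median-of-ratios scaling gave 0.05. Calls over all genes in adjacent against controls were 38 in the reported fit, 4 and 0 (higher and lower) without a filter and 10 and 0 without a trend.

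Direction changed only for differences that were not called. In tumor against controls, Slx4 was −0.026 without Mir6236 and −0.044 with Brca2-WT;Trp53-mut controls alone, where Hltf was −0.013; leaving out samples gave −0.046 to 0.066 for Slx4 and −0.051 to 0.12 for Hltf. Against adjacent cerebellum, median-of-ratios scaling gave 0.11 for Hltf and 0.15 for Slx4, quantile normalization 0.16 and 0.19, and Slx4 was −0.11 to 0.019 with samples left out and 0.048 without GB344 and GB359. In adjacent against controls, median-of-ratios scaling gave −0.015 for Smarcal1, −0.00059 for Mus81 and −0.026 for Slx4, quantile normalization −0.046 for Slx4, and Brca2-WT;Trp53-mut controls alone −0.052 for Mus81. There Slx4 was −0.010 to 0.12 with samples left out, and without GB344 and GB359 Slx4 was −0.039 and Zranb3 −0.070. Between control genotypes Slx4 was 0.0046 and 0.0044 under these scalings and −0.16 to 0.0041 with samples left out. The cause was not tested. TPM holds no depth, so counting error cannot be given, and 3 mice per group limit what small differences can show.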
